A study of Mus musculus with 28 samples.

Results

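Respiratory chain subunits were followed in retroperitoneal fat, a white adipose depot behind the kidneys, of C57BK/6J mice that were fed trans-10 cis-12 conjugated linoleic acid (CLA) or a control diet. The list held 43 nuclear genes for subunits of complexes I to V and for cytochrome c. Of these, 42 were named alone by at least 1 probe set, and Cox7b was not matched. They are 42 of the 18194 genes measured and were read by 92 probe sets naming 1 gene, of which the one with the highest mean over all arrays was used for each gene. Complex I had 19 members, complex II had 4, complex III with cytochrome c had 7, complex IV had 7 and complex V had 5.

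The 14 groups were 2 diets crossed with 7 days of feeding, with 2 arrays each: control diet on days 1, 2, 3, 4, 7, 10 and 17, and the same days on diet holding 0.5% CLA. All mice were 9 weeks old. The pads of 10 mice were pooled for a sample. The series text speaks of replicated pools but counts 140 mice, which is 10 for each of 14 groups, so whether the 2 arrays of a group came from separate pools is not settled. The p-values of single days and of comparisons between days therefore measure the spread between these arrays, which may be technical, while those over all 7 days measure the spread between days. The arrays show total RNA of whole fat, in which fewer cells of a type and less RNA per cell cannot be told apart.

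The respiratory chain sits in the inner mitochondrial membrane. Complex I takes electrons from NADH and complex II takes them from succinate, complex III and cytochrome c pass them on, complex IV hands them to oxygen, and complex V uses the resulting proton gradient to make ATP. White adipocytes hold few mitochondria compared with brown adipocytes, where uncoupling protein lets the gradient run down as heat. Most subunits are encoded in the nucleus and a few core ones in mitochondrial DNA; the latter are not analysed here.

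All values are the authors' log2 array values, and differences are CLA minus control on that scale. "Fell" and "rose" are used for differences with a Benjamini-Hochberg adjusted p under 0.05 over all 18194 genes in limma's moderated test. The difference over all 7 days is the mean of the 7 daily differences of group means, and its standard error (SE) comes from their spread (n = 7 days). Values of different probe sets were not set against each other as levels.

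Adipocyte, macrophage and other marker lists were read beside the chain. Over all 7 days 19.8% of all genes fell and 18.7% rose, and the counts of each list stand against these shares. The mean of 15 measured adipocyte markers ran from 11.05 to 11.83 in control arrays and from 9.94 to 10.84 in CLA arrays, and 14 of the 15 fell over all 7 days, with Slc2a4, the insulin-responsive glucose transporter, at -2.25 ± 0.12 (SE, n = 7 days; adjusted p from limma 7.52e-06). The mean of 16 macrophage markers ran from 7.54 to 8.74 in control arrays and from 7.89 to 10.40 in CLA arrays, and 14 rose and 0 fell, with Gpnmb, a glycoprotein of lipid-loaded macrophages, at 4.28 ± 0.69. The part these shifts had in the results on the chain was not tested. The mean of 12 skeletal muscle markers varied within both diets, from 6.33 to 10.18 in control arrays and from 5.37 to 9.35 in CLA arrays. Over all 7 days 3 of the 12 fell (Myl1 by 0.87, Myh1 by 0.74 and Mb by 0.45), a share near the 19.8% of all genes. Of 12 kidney and adrenal markers, whose mean lay between 3.85 and 4.37 in all arrays, Mc2r fell by 2.52 and Star rose by 1.18. No other gene of this list was called over all 7 days. Cyp11a1, Cyp11b1, Cyp21a1 and Hsd3b1, for example, differed by 0.05, -0.15, -0.02 and -0.03.

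In 5 groups, those of both diets on days 1 and 2 and of CLA on day 3, replicate 1 differed from replicate 2 in a shared way. The gene-wise difference between replicates correlated at 0.29 to 0.62 between these groups and at -0.09 to 0.39, with a median of 0.11, between the other 9. Ndufa4 was the member in which this showed most: it read 7.09 to 8.57 in the 5 replicate 1 arrays and 9.49 to 11.27 in all others. Replicate 1 of the day 2 control also carried the highest macrophage marker mean of any control array, 8.74 against 7.54 to 7.93 in the others. On day 1 the 3′ probe set of the Gapdh control exceeded the 5′ one by 1.27 to 1.33 in 3 of the 4 arrays and by 0.15 in the other, replicate 2 of the control, a gap that is used as a sign of RNA quality. A fit with a 3′ minus 5′ covariate was run. Under it the number of members that fell on day 1 was not among the counts that moved. The number on day 7 was, at 5 against 3. Values of single members on day 1 under this covariate are not given here.

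Over all 7 days, subunits of all 5 complexes fell under CLA. Of the 42 members, 37 fell and 0 rose, against 19.8% of all genes that fell and 18.7% that rose. At an unadjusted p under 0.05 in the same limma test, 39 members were lower and 0 were higher. For counts at an unadjusted p, here and below, the share of all genes is not given. The median member differed by -0.43 and the median of all genes by -0.03. Members of complex V fell in 5 of 5 cases, of complex I in 17 of 19, of complex III with cytochrome c in 6 of 7, of complex IV in 6 of 7, and of complex II in 3 of 4. The medians were -0.51 for complex I, -0.50 for complex II, -0.42 for complex III with cytochrome c, -0.35 for complex IV and -0.43 for complex V, and differences between complexes were not tested. Without the 5 replicate 1 arrays named above, 36 members fell and 0 rose. From days 4 to 17 alone, 24 fell, and the median of complex III with cytochrome c was -0.16.

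**Figure D1:**
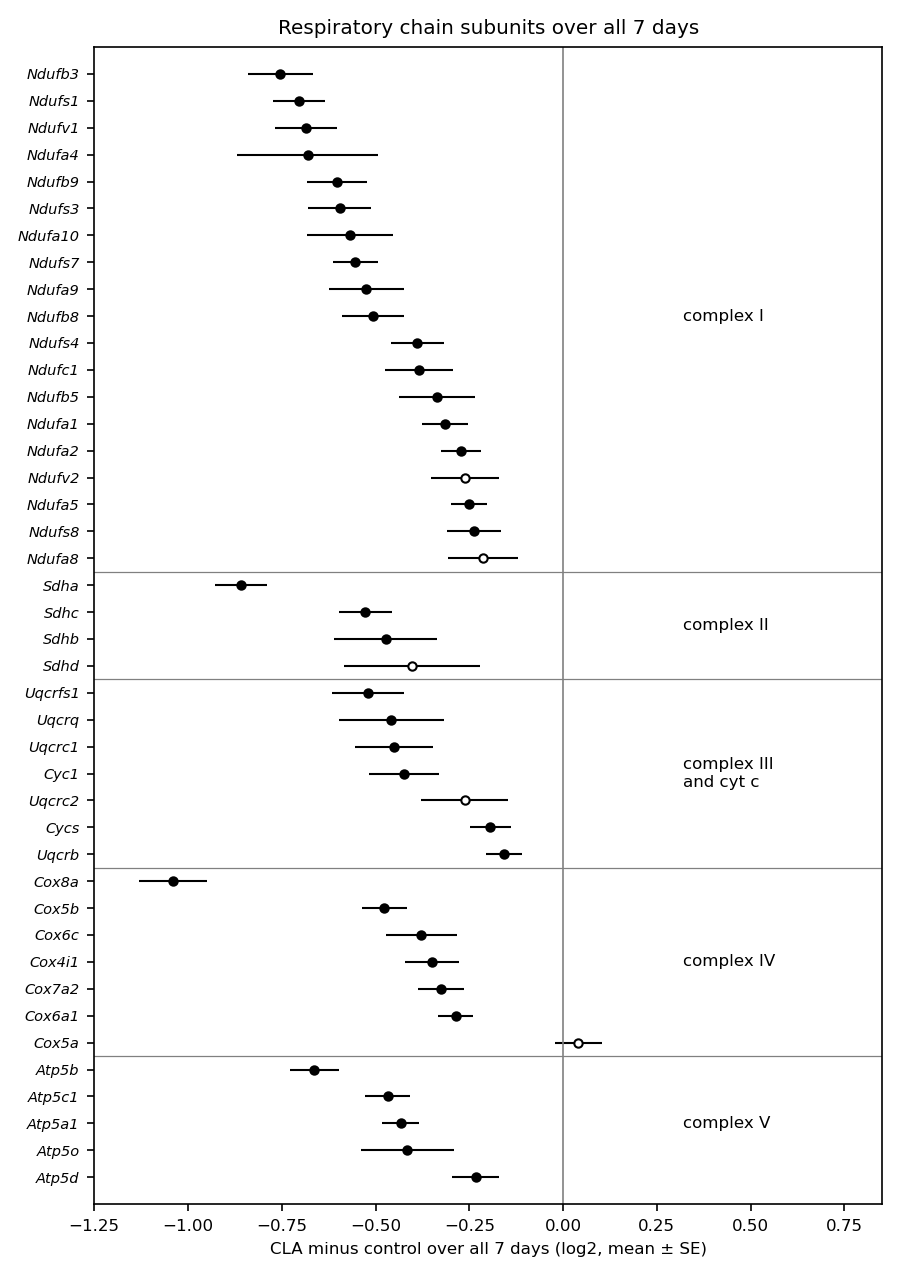
CLA minus control over all 7 days (log2, x axis) for each of the 42 members (y axis, grouped by complex); points are means of 7 daily differences, bars are 1 SE, and filled points mark members that fell at an adjusted p under 0.05. Cox8a lies furthest left at -1.04, Cox5a is the one member right of 0 at 0.04, and the 37 filled points are spread over all 5 complexes.

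The size of the fall varied among members of the same complex by more than the complex medians varied. Differences ran from -0.75 to -0.21 in complex I, from -0.86 to -0.40 in complex II, from -0.52 to -0.16 in complex III with cytochrome c, from -1.04 to 0.04 in complex IV and from -0.66 to -0.23 in complex V. In 33 members the CLA mean was below the control mean on all 7 days; the share of all genes for which this held was not computed. In 3 members, Ndufb3, Ndufs1 and Sdha, all 14 CLA arrays lay below all 14 control arrays, as they did for 3.58% of all genes.

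In complex I, Ndufb3, an accessory subunit of the membrane arm, fell most. It had a lowest, median and highest value of 11.07, 11.34 and 11.57 in the 14 control arrays and of 10.10, 10.63 and 10.95 in the 14 CLA arrays, without overlap. Its difference was -0.75 ± 0.09 (SE, n = 7 days; adjusted p from limma 0.000197), or 59.3% of control. Next came Ndufs1, the large iron-sulphur subunit, which passes electrons on within the peripheral arm, with 10.05, 10.21 and 10.40 in control and 9.12, 9.53 and 9.89 in CLA arrays. The diets again did not overlap, and the difference was -0.70 ± 0.07, or 61.4% of control.

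Ndufv1, which carries the NADH-binding site, fell by 0.68 ± 0.08, and its partner in the NADH module, Ndufv2, differed by -0.26 ± 0.09 with an adjusted p of 0.0504 in limma. The other core subunits of the peripheral arm, Ndufs3, Ndufs7 and Ndufs8, fell by 0.60, 0.55 and 0.24, the last a call lost in 9 of 50 alternative settings, single arrays left out among them. Ndufs4, an accessory subunit needed for assembly of the NADH module, fell by 0.39, although by the mean of its 4 probe sets the difference was -0.18 with an adjusted p of 0.1. Ndufa8, an accessory subunit of the intermembrane face, had the smallest difference of complex I on the probe sets used. Its lowest, median and highest values were 9.84, 10.36 and 10.64 in control and 9.61, 10.19 and 10.46 in CLA arrays, so the diets overlapped over most of their range, and the difference was -0.21 with a 95% interval of -0.42 to -0.0038 and an adjusted p of 0.104 in limma.

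The remaining accessory subunits of complex I all fell. Ndufa10, Ndufa9, Ndufb9 and Ndufb8 did so by 0.57, 0.52, 0.60 and 0.51, and Ndufb5, Ndufc1, Ndufa1, Ndufa2 and Ndufa5 by 0.25 to 0.39. The Ndufb5 call was lost in 9 of 50 alternative settings, among them without replicate 1 of the control on day 1, without replicate 1 of CLA on day 7 and without the 5 replicate 1 arrays that stood apart. Ndufa4, listed with complex I by tradition and since also found with complex IV, fell by 0.68, but with an SE of 0.19, the largest among the 42 members. It differed by -1.91 on day 3, the lowest daily value of any member, yet was called on no day. Its call over all 7 days was lost when either replicate 1 of CLA on day 1 or on day 2, or replicate 2 of the control on day 1 or on day 2, was left out.

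Complex II, succinate dehydrogenase, is also an enzyme of the citrate cycle and has no subunit from mitochondrial DNA. Sdha, the flavoprotein that oxidises succinate, fell most, from a lowest, median and highest value of 10.96, 11.49 and 11.68 in control arrays to 9.98, 10.61 and 10.91 in CLA arrays. The diets did not overlap, and the difference was -0.86 ± 0.07 (SE, n = 7 days; adjusted p from limma 3.56e-05), or 55.1% of control. Its other bright probe set gave -0.96. Sdhc, a membrane anchor, had 9.50, 10.31 and 10.73 in control and 8.87, 9.85 and 10.15 in CLA arrays, and fell by 0.53 ± 0.07, with overlap between the diets.

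The other complex II subunits were lower early and close to control later, as set out by day below. Sdhb, the iron-sulphur subunit, fell by 0.47 ± 0.14 over all 7 days, a call lost without day 2, 3 or 4. Sdhd, the other membrane anchor, had 9.84, 9.99 and 10.45 in control and 8.47, 9.87 and 10.19 in CLA arrays. Its difference of -0.40 ± 0.18 did not pass, with an adjusted p of 0.115 in limma and a 95% interval of -0.81 to 0.0072.

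Complex III passes electrons from ubiquinol to cytochrome c. Uqcrfs1, its Rieske iron-sulphur protein, had a lowest, median and highest value of 10.97, 11.22 and 11.50 in control and 10.22, 10.68 and 11.13 in CLA arrays and fell by 0.52 ± 0.10. Uqcrq, a small accessory subunit, had 10.55, 11.09 and 11.39 in control and 9.68, 10.72 and 11.30 in CLA arrays and fell by 0.46 ± 0.14, a call lost in 6 of 50 alternative settings, such as without day 2. In both, the ranges of the diets overlapped.

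Core protein Uqcrc1 fell by 0.45 and cytochrome c1 (Cyc1) by 0.42, while core protein Uqcrc2 differed by -0.26 with an adjusted p of 0.11 in limma. Cytochrome c itself, Cycs, the soluble carrier between complexes III and IV, fell by 0.19 ± 0.05, a call lost in 8 of 50 alternative settings, such as without replicate 1 of CLA on day 7 and under quantile normalisation. Its other probe sets gave -0.26, -0.41 and, on a dim one, -0.35. On the probe sets used, Uqcrb, the ubiquinone-binding protein, had the smallest difference of this group. It had 13.08, 13.33 and 13.53 in control and 13.03, 13.17 and 13.35 in CLA arrays. It fell by 0.16 ± 0.05, and the call was lost in 13 of the 50 alternative settings in which it was recomputed. Its other probe set, also bright, gave -0.36.

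Complex IV, cytochrome c oxidase, held both ends of the range. Cox8a, the form of its smallest subunit that most tissues use, had a lowest, median and highest value of 9.56, 10.73 and 11.10 in control and 8.60, 9.76 and 10.31 in CLA arrays. The difference was -1.04 ± 0.09 (SE, n = 7 days; adjusted p from limma 4.78e-05), or 48.6% of control, and a second bright probe set also gave -1.04. Both control arrays were above both CLA arrays within each of the 7 days, and the overlap came from replicate 1 of the control on days 1 and 2, at 9.56 and 9.77.

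Cox5b, which binds zinc on the matrix side, had 12.52, 12.87 and 13.03 in control and 11.98, 12.36 and 12.66 in CLA arrays and fell by 0.48 ± 0.06. Cox5a, the neighbouring matrix-side subunit, had 11.44, 11.77 and 11.96 in control and 11.40, 11.81 and 12.12 in CLA arrays, and the diets overlapped fully. Its difference was 0.04 ± 0.06, with an adjusted p of 0.665 in limma and a 95% interval of -0.10 to 0.18, and its other probe sets gave -0.02 and -0.16. Cox6c, Cox4i1, Cox7a2 and Cox6a1 fell by 0.38, 0.35, 0.33 and 0.29.

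Complex V, the ATP synthase, fell in each of the 5 members listed, although the call was lost in 7 of 50 alternative settings for Atp5d, single arrays left out among them, in 5 for Atp5o and in 1, another probe set, for Atp5a1. Atp5b, its catalytic beta subunit, had 12.04, 12.61 and 12.77 in control and 11.15, 11.94 and 12.19 in CLA arrays and fell by 0.66 ± 0.06, or 63.2% of control. Atp5c1, the rotating gamma subunit, had 12.01, 12.34 and 12.52 in control and 11.40, 11.85 and 12.32 in CLA arrays and fell by 0.47 ± 0.06. In both, the highest CLA arrays lay above the lowest control array.

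On the probe sets used, Atp5d, the delta subunit of the central stalk, had the smallest difference of complex V and fell by 0.23 ± 0.06. It had 11.19, 11.52 and 11.87 in control and 11.00, 11.28 and 11.69 in CLA arrays. The diets overlapped over most of their range. The other probe set of Atp5d gave -0.41. Atp5a1, the alpha subunit, fell by 0.43 ± 0.05, and Atp5o, which holds the stator to the head, by 0.42 ± 0.12.

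The start regions of Sdha, Sdhb, Sdhd, Cox8a and Cox5a are shown because the text gives them in most detail: Sdha and Cox8a had the largest falls over all 7 days, Sdhb and Sdhd the largest later minus earlier differences among those called, and Cox5a the smallest difference. Sequences are RefSeq's on build GRCm38.p6, 5′ to 3′ on the gene's strand, from 250 bases before the annotated start to 30 after it, with motif matches in capitals. They lie at chr13:74350211-74350490 (minus strand) for Sdha, chr4:140961021-140961300 (plus) for Sdhb, chr9:50603820-50604099 (minus) for Sdhd, chr19:7217587-7217866 (minus) for Cox8a and chr9:57520982-57521261 (plus) for Cox5a.
Sdha: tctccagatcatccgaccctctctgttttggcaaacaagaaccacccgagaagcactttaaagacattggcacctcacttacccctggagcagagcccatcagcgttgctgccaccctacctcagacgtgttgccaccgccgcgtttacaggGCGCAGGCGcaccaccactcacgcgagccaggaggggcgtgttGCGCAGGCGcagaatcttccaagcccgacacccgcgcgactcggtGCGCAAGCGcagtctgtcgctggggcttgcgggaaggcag
Sdhb: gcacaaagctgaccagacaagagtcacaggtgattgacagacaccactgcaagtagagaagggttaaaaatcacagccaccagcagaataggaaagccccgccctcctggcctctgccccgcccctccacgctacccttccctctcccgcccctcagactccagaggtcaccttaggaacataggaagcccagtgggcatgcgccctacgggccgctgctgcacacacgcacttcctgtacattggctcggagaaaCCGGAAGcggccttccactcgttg
Sdhd: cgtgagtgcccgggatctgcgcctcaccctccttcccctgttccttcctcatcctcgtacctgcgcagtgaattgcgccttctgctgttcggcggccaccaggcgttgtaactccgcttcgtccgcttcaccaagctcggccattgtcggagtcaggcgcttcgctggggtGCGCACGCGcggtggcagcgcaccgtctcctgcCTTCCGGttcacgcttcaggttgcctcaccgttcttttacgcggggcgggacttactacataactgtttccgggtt
Cox8a: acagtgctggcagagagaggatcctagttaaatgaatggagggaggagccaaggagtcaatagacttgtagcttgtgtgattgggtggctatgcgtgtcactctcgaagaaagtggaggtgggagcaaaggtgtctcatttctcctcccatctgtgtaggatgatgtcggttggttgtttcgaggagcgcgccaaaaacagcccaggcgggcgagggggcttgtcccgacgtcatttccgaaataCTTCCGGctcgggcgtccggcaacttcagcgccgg
Cox5a: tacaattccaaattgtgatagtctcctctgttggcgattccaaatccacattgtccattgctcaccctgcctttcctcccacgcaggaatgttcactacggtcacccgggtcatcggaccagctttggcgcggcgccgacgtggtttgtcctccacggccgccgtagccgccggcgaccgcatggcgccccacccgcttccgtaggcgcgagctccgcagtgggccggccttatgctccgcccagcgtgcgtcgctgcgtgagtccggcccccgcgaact
The motifs searched, on either strand, were GCGCANGCG for nuclear respiratory factor 1, AAGGTCA for oestrogen-related receptors, CCGGAAG for ETS factors such as GABP, and AAGATGGCG for YY1. In the printed stretches, Sdha held 3 matches to the first, and Sdhd 1 to the first and 1 to the ETS motif. Sdhb and Cox8a held 1 each to the ETS motif, and all these are in capitals above. Cox5a held none of these letters in this stretch. The 300-base windows described next held 1 more match each for Sdhd and Cox8a, reaching past the printed stretch. That of Sdhd was to the oestrogen-related receptor motif and that of Cox8a to the ETS motif.

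Promoter windows of 300 bases, reaching 50 past the start, were held for 31 members (34 windows). The nuclear respiratory factor 1 motif was in 29.4% of these windows, in 9.86% of the 18110 windows of genes measured here and in 6.25% of all 32851 windows. The YY1 motif was in 11.8%, 2.09% and 1.4% of them, the ETS motif in 17.6%, 13.0% and 8.86%, and the oestrogen-related receptor motif in 2.94%, 3.92% and 4.72%. A match is a description of the letters and shows no binding.

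By day, the members were lowest on days 1 to 3 and nearer control from day 7 on. The median member differed by -0.49 on day 1, -0.61 on day 2, -0.66 on day 3, -0.38 on day 4, -0.23 on day 7, -0.27 on day 10 and -0.22 on day 17, while the median of all genes lay between -0.07 and 0.005. Every member had its lowest difference within the first 3 days: 9 on day 1, 14 on day 2 and 19 on day 3. The same split was not computed for all genes.

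Of the 42 members, 18 fell on day 1, against 10.8% of all genes, and 22 fell on day 2, against 5.34%. On day 3, 29 fell, against 11% of all genes, and on day 4, 11 fell, against 11.3%. Later, 3 fell on day 7 (8.57% of all genes), 5 on day 10 (10.2%) and 4 on day 17 (8.78%). The members' share was 69.0% on day 3 and 26.2% on day 4, and on days 7, 10 and 17 it was 7.14%, 11.9% and 9.52%, near the share of all genes.

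No member rose on any day by limma's adjusted p, nor at an unadjusted p under 0.05, where the counts were 0 on each of the 7 days. Among all genes, 7.96% rose on day 1, 4.84% on day 2, 11.3% on day 3, 12.8% on day 4, 8.74% on day 7, 10% on day 10 and 11.5% on day 17. At an unadjusted p under 0.05 the members that were lower numbered 28, 30, 37, 25, 8, 12 and 11 on the 7 days in order. Without the share of all genes at that threshold, these numbers do not show whether members were lower more often than other genes.

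Array separation was also most frequent on days 1 to 4. On days 7, 10 and 17 it stayed above the share of all genes, while the share of calls was near that of all genes. Both CLA arrays were below both control arrays for 34 of the 42 members on day 1 (22.4% of all genes), 39 on day 2 (23.5%), 41 on day 3 (28.7%) and 35 on day 4 (31.4%). They were so for 17 members (40.5%) on day 7, 24 (57.1%) on day 10 and 27 (64.3%) on day 17. The shares of all genes on these days were 29.6%, 33.3% and 33.4%. On day 3 Cox5a was the exception. On day 7 the 2 CLA arrays had member medians of 10.78 and 11.25, and their skeletal muscle marker means were 5.37 and 8.63; the part of muscle RNA in this was not tested.

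**Figure D2:**
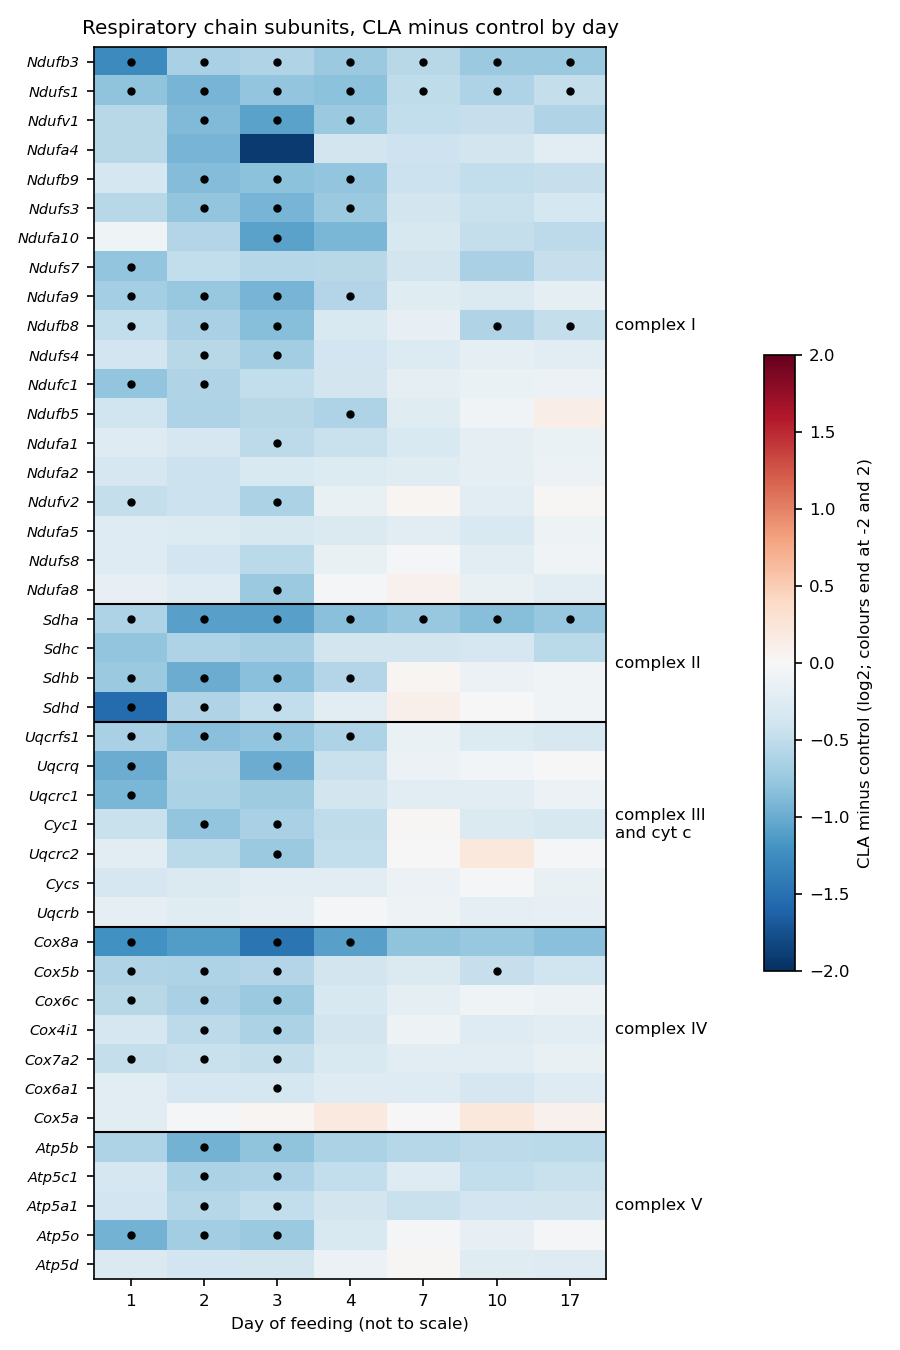
CLA minus control (colour, log2) for the 42 members (rows, grouped by complex and ordered by their difference over all 7 days) on each day of feeding (columns); dots mark an adjusted p under 0.05. Dots number 18, 22, 29 and 11 on days 1 to 4 and 3, 5 and 4 on days 7, 10 and 17, and Ndufb3, Ndufs1 and Sdha carry one on every day.

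The daily calls rest on few arrays. Day 1 gave 11 members without replicate 1 of CLA; day 2 gave 7 without replicate 2 of CLA, 13 without replicate 1 of the control and 5 without its replicate 2; day 3 gave 16 without replicate 1 of CLA and 18 without either control array. Day 4 gave 5 and 6 without replicates 1 and 2 of CLA and 6 without replicate 2 of the control. Day 7 gave 1 without replicate 1 of either diet and 6 without replicate 2 of CLA, day 10 gave 2, 3 and 2 without replicate 1 of CLA and replicates 1 and 2 of the control, and day 17 gave 2 without either CLA array or replicate 1 of the control. Without the 5 replicate 1 arrays that stood apart, 14, 19, 24, 15, 5, 8 and 6 members fell on the 7 days in order. When a day was tested on its own 4 arrays, with no spread borrowed from the other groups, 2 members fell on day 1, 0 on day 2 (limma; in the model of all groups 30 were lower at an unadjusted p under 0.05), 1 on day 7 and 9 on day 17.

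The 3 members that fell on all 7 days were Ndufb3, Ndufs1 and Sdha. A further 9 fell on no single day, of which Ndufa2, Ndufa4, Ndufa5, Ndufs8, Sdhc, Uqcrb, Cycs and Atp5d fell only in the test over all 7 days and Cox5a in neither. The shares of all genes that fell on every day or on none were not computed. The largest fall among called members was that of Sdhd on day 1, of Sdha on days 2, 7, 10 and 17, and of Cox8a on days 3 and 4.

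On day 1 Sdhd read 9.98 and 10.05 in the control arrays and 8.49 and 8.47 in the CLA arrays. The pairs were far apart and each was tight, and the difference was -1.53 ± 0.17 (SE; adjusted p from limma 2.61e-06, 2 arrays a group). Ndufb3 was next that day, at 11.44 and 11.33 in control and 10.10 and 10.13 in CLA arrays. Cox8a on day 3 read 10.99 and 10.61 in control and 8.97 and 9.71 in CLA arrays, a difference of -1.46 ± 0.37 (adjusted p 0.00607). The CLA arrays of that day disagreed with each other by more than the control arrays did, but both were lower.

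**Figure D3:**
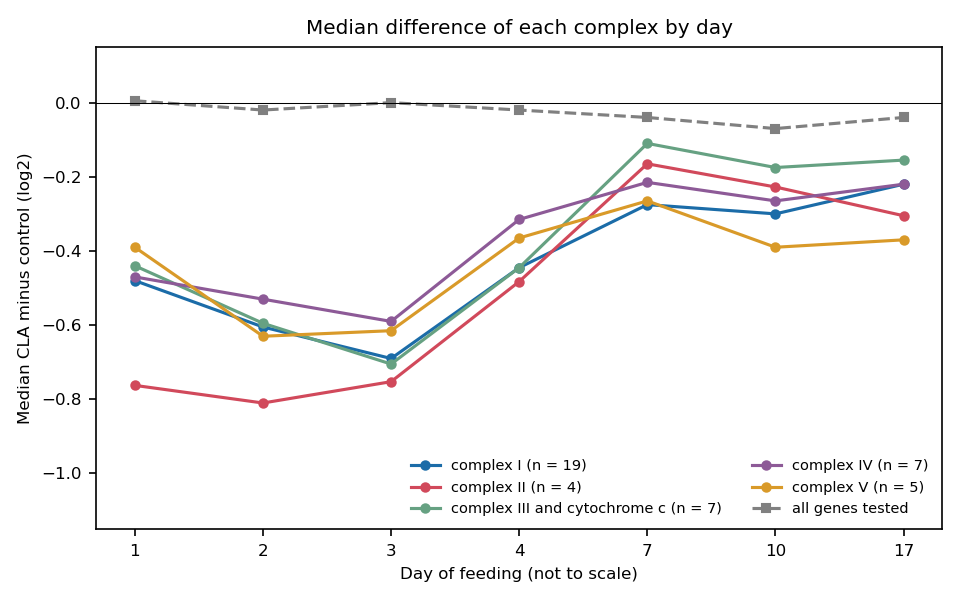
Median CLA minus control (log2, y axis) of each complex on each day of feeding (x axis, not to scale), with the median of all 18194 genes as a dashed line. The 5 complexes lie between -0.81 and -0.39 on days 1 to 3 and between -0.39 and -0.11 on days 7 to 17, and the line of all genes stays within 0.07 of 0.

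The return toward control was tested by subtracting the mean early difference (days 1, 2 and 3) from the mean later one (days 7, 10 and 17). It was positive with an adjusted p under 0.05 for 10 members and negative for 0, against 6.2% and 3.51% of all genes; at an unadjusted p under 0.05 the counts were 17 and 0. The 10 were Ndufa9, Ndufc1 and Ndufv2 of complex I, Sdhb and Sdhd of complex II, Uqcrc2, Uqcrfs1 and Uqcrq of complex III, Cox6c of complex IV and Atp5o of complex V. Of these, 7 are also called without the 5 replicate 1 arrays; Ndufc1, Uqcrc2 and Uqcrfs1 are not, at adjusted p of 0.075, 0.0944 and 0.23, and Ndufa4 is added.

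A test for any change of the CLA difference across the 7 days called 4 members, Sdhd, Sdhb, Cox6c and Ndufa9, or 9.52% of them against 9.82% of all genes, so the members' share was not above the background. It called 2 members when replicate 1 of either diet on day 3 or replicate 2 of CLA on day 17 was left out. The control groups alone did not change by day in any member at an adjusted p under 0.05 in limma, against 0.115% of all genes. At an unadjusted p under 0.05, 2 members changed.

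In complex II, Sdhb and Sdhd were among the members whose difference moved upward. Sdhb read 11.11 and 11.40 in control and 10.46 and 10.57 in CLA arrays on day 1, and 11.20 and 11.23 against 10.28 and 10.16 on day 2. On day 7 it read 11.14 and 11.38 in control and 11.29 and 11.30 in CLA arrays, and on day 17 11.33 and 11.32 against 11.25 and 11.26. The CLA arrays were thus clearly low early and at the control level from day 7, and its later minus earlier difference was 0.81 ± 0.11 (adjusted p from limma 5.93e-05, 2 arrays a group).

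Sdhd followed the same course, with 9.94 and 9.95 in control and 9.42 and 9.27 in CLA arrays on day 2 and 9.85 and 10.15 against 10.19 and 10.01 on day 7. The diets were apart on day 2 and overlapped on day 7, where the difference was 0.10 with a 95% interval of -0.25 to 0.45. Its later minus earlier difference was 0.89 ± 0.14 (adjusted p from limma 0.000263).

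Sdha was called on each of the 7 days. It read 10.96 and 11.44 in control and 9.98 and 10.24 in CLA arrays on day 2, 11.48 and 11.53 against 10.69 and 10.81 on day 7, 11.68 and 11.51 against 10.57 and 10.91 on day 10, and 11.48 and 11.44 against 10.65 and 10.74 on day 17. The diets stayed apart throughout, and its later minus earlier difference was 0.14 ± 0.13 (adjusted p from limma 0.561). On day 17 it stood at -0.77 ± 0.16 (adjusted p 0.0019). Whether Sdha differs from Sdhb and Sdhd in this was not tested.

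**Figure D4:**
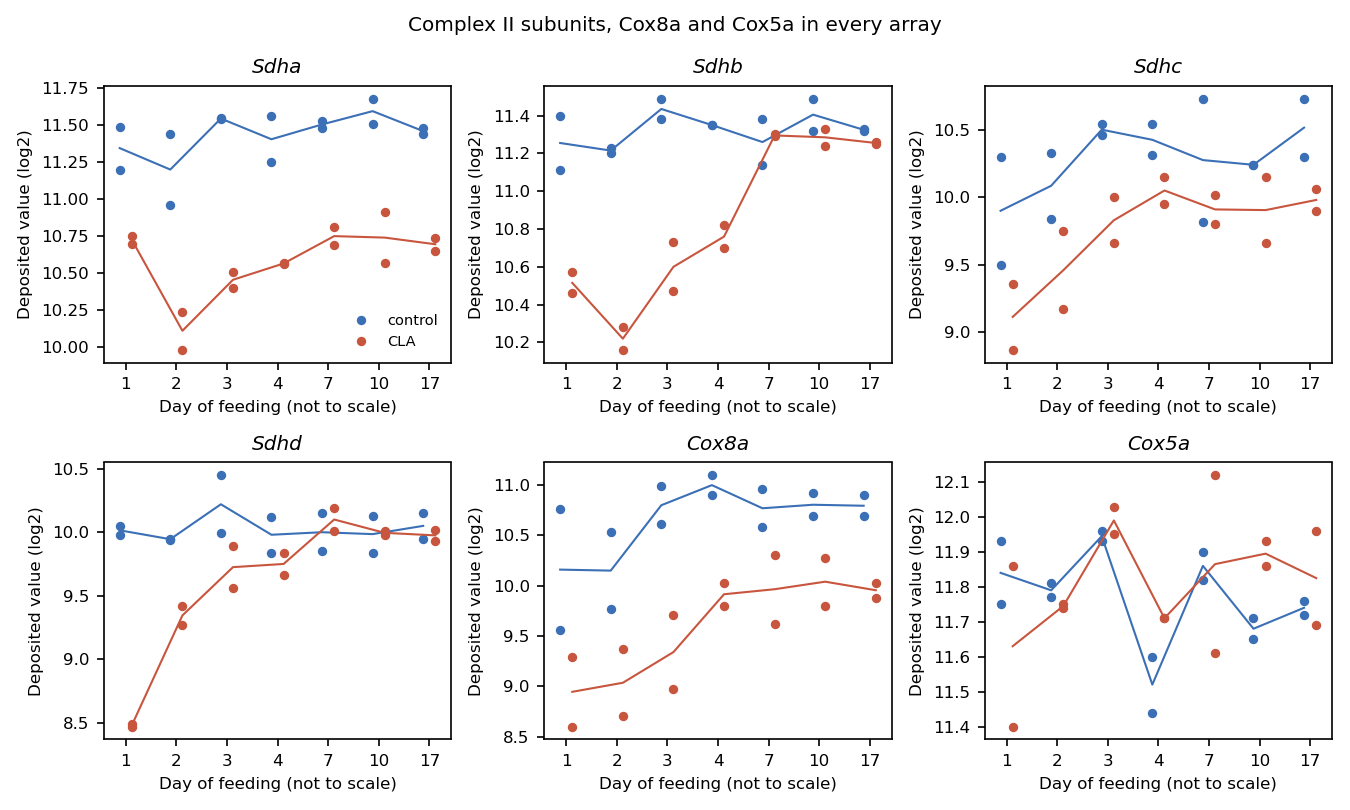
Deposited log2 value (y axis, a scale of its own in each panel) in every array of control (blue) and CLA (red) mice by day of feeding (x axis, not to scale) for the 4 complex II members, Cox8a and Cox5a; points are arrays and lines join group means. Sdhb and Sdhd of CLA mice reach the control level from day 7, Sdha and Cox8a stay below it to day 17, and the ranges of the 2 diets overlap for Cox5a.

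Some other members were called on late days. Ndufs1 read 10.40 and 10.15 in control and 9.89 and 9.71 in CLA arrays on day 17, and Ndufb3 11.36 and 11.38 against 10.63 and 10.64. Ndufb8 of complex I was called on days 10 and 17 at -0.59 and -0.48 but not on days 4 and 7, when it was at -0.30 and -0.16 and, on day 7, the diets overlapped. Cox5b was called on day 10 at -0.46. Cox8a was still at -0.84 ± 0.37 on day 17, with control arrays at 10.90 and 10.69 and CLA arrays at 9.88 and 10.03, but with its wide SE the adjusted p was 0.122 in limma.

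Among other genes of the chain, chosen with these data known as the members were, falls were also more frequent than rises. Of 32 further nuclear genes listed with the chain, not all of them subunits, 22 fell and 3 rose over all 7 days. The shares of all genes were 19.8% and 18.7%, and the median of the 32 was -0.35. Ndufv3, Ndufs5 and Uqcr11 fell by 0.82, 0.74 and 0.72. Those that rose were Atpif1 by 1.31 ± 0.26 (adjusted p from limma 0.00383, n = 7 days), Cox7a2l by 0.42 and Cox7c by 0.65 on a dim probe set. Atpif1 is the inhibitor that keeps the ATP synthase from running in reverse.

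Assembly factors, which build the complexes without being part of them, fell in 25 of 39 cases over all 7 days and rose in 1, Cox10, by 0.24; their median was -0.32. Ndufaf3, Foxred1 and Ecsit, all complex I assembly factors, fell by 0.97, 0.77 and 0.76, and Atpaf1, of the ATP synthase, by 0.74. Of these 39 genes, 12 fell on day 10 and 9 on day 17, against 10.2% and 8.78% of all genes.

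Of 25 genes of mitochondrial import, chaperones and dynamics, 8 fell and 4 rose over all 7 days, with a median of -0.07, against 19.8% and 18.7% of all genes, so rises were no more frequent than among all genes. Mfn2, which fuses outer membranes, fell by 0.91, the matrix chaperone Trap1 by 0.90, the import receptor Timm50 by 0.56 and the protease Clpp by 0.52. The 4 that rose were the outer membrane import receptor Tomm70a, by 0.48, its partners Tomm20 and Tomm22, by 0.21 and 0.19, and the porin Vdac3, by 0.20. The lists were not tested against each other.

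Of 18 regulators of mitochondrial biogenesis, 2 fell and 4 rose over all 7 days, shares near the 19.8% and 18.7% of all genes. The corepressor Nrip1 fell by 1.42 and the mitochondrial RNA polymerase Polrmt by 0.45. The coactivator Pprc1 rose by 1.03, Gabpb1, a GABP subunit, by 0.58, Yy1 by 0.39 and Nrf1, the nuclear respiratory factor, by 0.32. Tfam, which packages and transcribes mitochondrial DNA, differed by 0.14 with an adjusted p of 0.288.

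Of the PGC-1 coactivators, which drive expression of the chain, Ppargc1a and Ppargc1b fell on day 1, while Pprc1 rose on days 1, 2, 3, 4 and 17. Ppargc1b read 7.67 and 7.48 in control and 5.52 and 4.80 in CLA arrays on day 1, and 7.80 and 7.49 against 7.71 and 7.44 on day 2. It fell by 2.42 ± 0.24 on day 1 (adjusted p from limma 9.72e-07, 2 arrays a group) and on no other day. Esrra, an oestrogen-related receptor, also fell on day 1, with 7.23 and 7.42 in control and 6.67 and 6.58 in CLA arrays on day 1, a difference of -0.70. It was not called later, at -0.24 on day 10 for example, and a change of its difference across days was not called either (adjusted p 0.274).

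Ppargc1a, on a dim probe set, read 5.12 and 4.30 in control and 3.42 and 3.53 in CLA arrays on day 3. It fell on days 1, 3 and 4, at -1.12, -1.24 and -0.81, and was not called on days 7, 10 and 17, and its later minus earlier difference was 1.14 ± 0.20 (adjusted p 0.00102).

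Of 5 tissue isoforms of complex IV, Cox8b and Cox7a1 had a later minus earlier difference that was called, at 2.55 and 3.10. Cox8b, the heart, muscle and brown fat form of subunit 8, read 10.50 and 10.60 in control and 6.31 and 7.47 in CLA arrays on day 3, a difference of -3.66 ± 0.52 (adjusted p from limma 3.01e-05, 2 arrays a group). It also fell on days 1, 2 and 4, and on day 10 it read 10.07 and 10.58 in control and 10.33 and 10.82 in CLA arrays, with overlap. On day 17 it read 9.91 and 10.25 in control and 8.87 and 9.53 in CLA arrays, without overlap, but the difference of -0.88 was not called (adjusted p 0.268). The member Cox8a was not called on days 10 and 17 either, at -0.77 and -0.84, and the 2 genes were not tested against each other.

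Cox7a1, the muscle and brown fat form of subunit 7a, fell by 1.37 on day 1 and 1.27 on day 2 and then passed control. On day 10 it read 7.08 and 7.34 in control and 9.57 and 9.73 in CLA arrays, a rise of 2.44 ± 0.33 (adjusted p 2.09e-05). The isoform used in other tissues, the member Cox7a2, differed by -0.22 that day (adjusted p 0.246). Cox4i2, Cox6a2 and Cox6b2 did not pass over all 7 days, at -0.09, 0.40 and 0.10.

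Ucp1, the uncoupling protein of brown adipocytes, moved like Cox7a1: it fell by 2.13 on day 1 and rose by 4.34, 4.70 and 3.86 on days 7, 10 and 17. The members showed no such rise, with 0 of 42 called higher on those days. Of 7 measured brown adipocyte markers, Cidea fell by 2.27 and Otop1 by 1.10 over all 7 days, and Elovl3 rose by 1.20. By day, Cidea and Otop1 fell on days 1, 2, 3 and 4 and were not called on days 7, 10 and 17. The later minus earlier difference was called upward for 4 of the 7, Ucp1, Cidea, Elovl3 and Otop1, against 6.2% of all genes. The array means of the 7 markers on day 10 were 5.26 and 5.85 in control and 6.45 and 7.20 in CLA arrays.

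**Figure D5:**
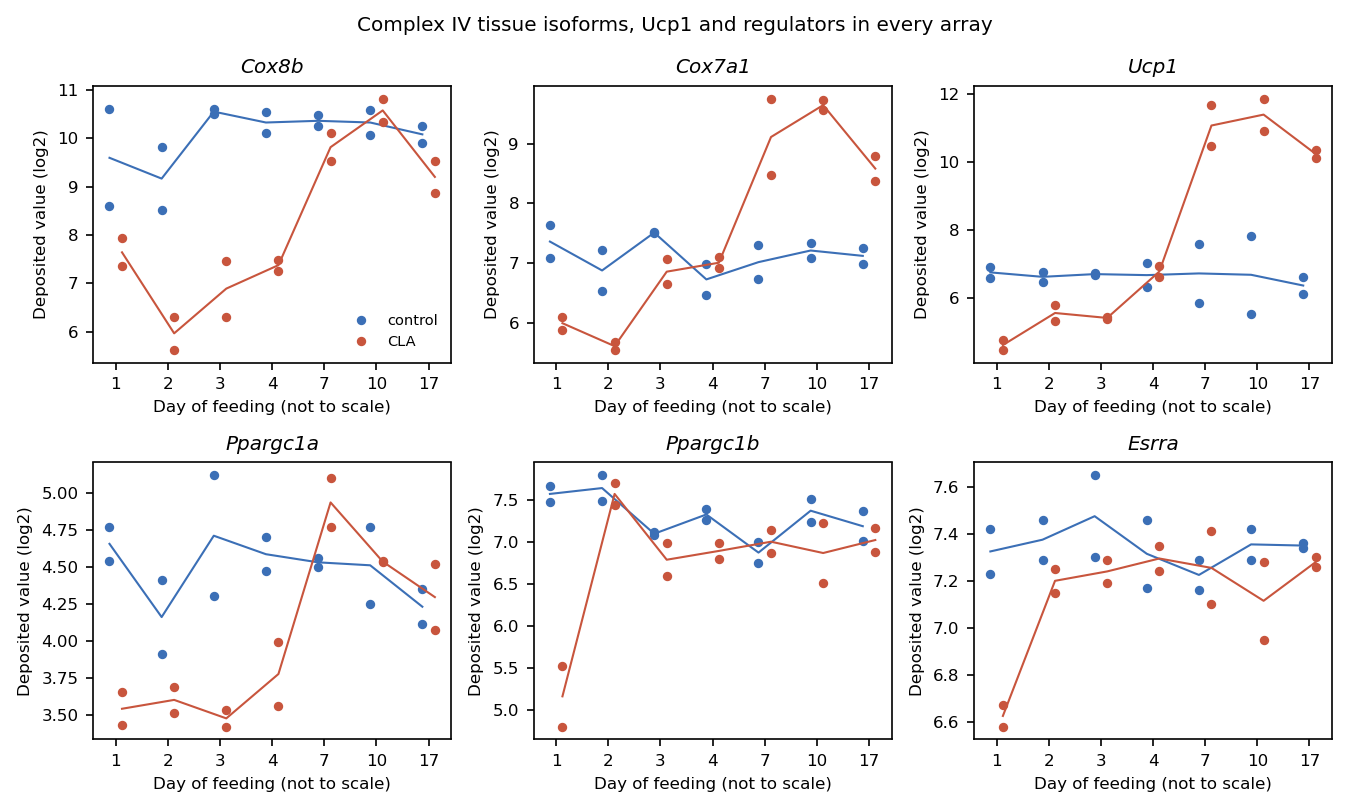
Deposited log2 value (y axis, a scale of its own in each panel) in every control (blue) and CLA (red) array by day of feeding (x axis, not to scale) for Cox8b, Cox7a1, Ucp1, Ppargc1a, Ppargc1b and Esrra; points are arrays and lines join group means. Cox8b drops to between 5.62 and 7.93 on days 1 to 4 and reads 10.33 and 10.82 on day 10 and 8.87 and 9.53 on day 17, Cox7a1 and Ucp1 exceed control from day 7, and Ppargc1b and Esrra are called on day 1 and on no other day.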

How the data were processed

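Total RNA of pooled retroperitoneal fat was hybridised to 28 Affymetrix arrays of 45101 probe sets, 2 for each of 14 diet and day groups. The deposited values are log2 intensities that the authors made with RMA, per the submitters' processing notes; the version and settings are not given in the sources used here. Array medians ran from 4.1 to 4.2, so no further scaling was applied. The number of arrays limits the precision.

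Probe sets were named from GEO's platform annotation: 34958 named 1 gene, 932 several and 9211 none, and those of several or no genes were left out. For each of 18194 genes the probe set with the highest mean was used; of the members, 28 had more than 1. Members, lists and tests were chosen with earlier results of these data known. Genes with values given in full were, per complex, the 2 with the largest and the 1 with the smallest difference over all 7 days and the largest called fall of each day; from each other list up to 4 called genes; and Ppargc1a, Ppargc1b, Esrra, Nrf1, Tfam, Ucp1, Cox7a1 and Cox8b.

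limma 3.58.1 in R 4.3.3 fitted the 14 group means on all 28 arrays (14 residual degrees of freedom) for daily differences, the later minus earlier difference and the F tests, and group means with day as a block (6 residual degrees of freedom) for the difference over all 7 days. p-values were adjusted over all genes by Benjamini-Hochberg at 0.05. The fits were tested on simulated data first. The members' counts, the complex medians and the members' own differences were recomputed under other scalings, probe set rules, models and sets of arrays; results on the other lists were not. Same-numbered CLA and control arrays deviated together with correlations of 0.098 to 0.566 by day; with 2 numbers a group they were not treated as paired. Sequences are RefSeq's, matched by gene ID.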

Additional observations from a re-analysis of the deposited data

Results flagged for a closer look

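The CLA effect differed between days in 10 members, each by limma's test of the difference itself, and 4 of them did so in both tests. The 4 called across all 7 days were 9.52% of the members, not above the 9.82% of all genes. The 10 that moved upward were 23.8% of the members, against 6.2% of all genes. Of these 10, Ndufc1, Uqcrc2 and Uqcrfs1 were not called without the 5 replicate 1 arrays that stood apart. Across all 7 days the CLA effect changed in Sdhd (adjusted p 0.00105), Sdhb (0.00173), Cox6c (0.026) and Ndufa9 (0.0323). From days 1 to 3 to days 7 to 17 it moved upward in Sdhb (adjusted p 5.93e-05), Sdhd (0.000263), Cox6c (0.00112), Ndufa9 (0.0016), Atp5o (0.00502), Uqcrq (0.0126), Ndufv2 (0.0167), Ndufc1 (0.0416), Uqcrc2 (0.0494) and Uqcrfs1 (0.0496).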

How the results depend on the processing

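Over all 7 days between 29 and 39 members fell when single arrays or days were left out, and 0 rose. With single arrays left out, the number that fell ran from 11 to 19 on day 1, 5 to 24 on day 2, 16 to 32 on day 3, 5 to 14 on day 4, 1 to 6 on day 7, 2 to 6 on day 10 and 2 to 4 on day 17, and the number whose CLA effect changed by day from 2 to 6. Quantile normalisation gave 19 on day 4. Centring arrays on their medians gave 7 on day 17 and 2 by-day changes, and keeping genes above the median level also gave 2. Day 7 gave 5 with the mean of all probe sets, with the 3′ minus 5′ covariate, and without the 5 replicate 1 arrays, where day 10 gave 8. Tested on the 4 arrays of the day alone, days 1, 2, 7 and 17 gave 2, 0, 1 and 9. Days 4 to 17 alone gave 24 over these days and medians of -0.33 for complex I and -0.16 for complex III with cytochrome c. With the replicate block 40 fell over all 7 days, and no count of calls moved by over 1.5 times. Atp5a1 on day 3 was 0.295 by its most variable probe set, a dim one, against -0.495 by the one used. Leaving out the 5 arrays, days 4 to 17 alone and a block of day and replicate number, which gave 41, were chosen after seeing the data. The causes of these moves were not tested. With 2 arrays a group, the precision of every daily value is limited.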
